A study of Mus musculus with 4 samples.

Results

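Elastic fibre and microfibril genes were followed through the tenotomy site 7 days after burn/tenotomy injury. The 10 genes are Eln, Fbn1, Fbn2, Mfap2, Mfap4, Mfap5, Fbln1, Fbln2, Fbln5 and Emilin1, chosen by symbol, and each had exactly 1 row in the feature lists of all 4 samples, which share 19465 genes. Elastic fibres give tissue its recoil. They consist of a cross-linked core of elastin laid down on a scaffold of microfibrils, which are polymers of fibrillin decorated by microfibril-associated glycoproteins. Fibulins and emilins sit at the boundary of core and scaffold and bring monomers to the growing fibre, and lysyl oxidases cross-link the core. Microfibrils also occur without elastin, and they bind latent growth factors.

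Single-cell RNA sequencing (scRNA-seq, 10x 3′ v3 chemistry) was performed on unsorted cells of the injury site from mice labelled Hoxa11CreER;ROSA-LSL-TdTomato;Hif1a fl/fl, which received tamoxifen at 75 mg/kg on each of 5 days and a washout of 9 days before injury. In this model the Cre driver is active in Hoxa11-expressing cells of the zeugopod and the labels do not say which animals carried Cre. Littermates without Cre are not analysed here. There are 2 libraries, a pool of replicates 1 and 2, and replicate 3 on its own. Visium spatial transcriptomics, which counts transcripts on a grid of barcoded spots that each cover several cells, was performed on sections A1 and B1 of wild-type C57BL/6 mice aged 10 weeks, also 7 days after burn/tenotomy, and the labels do not say whether the sections came from separate mice. No comparison between genotypes or between injured and uninjured tissue can be made from these 4 samples.

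The libraries held 31536402 and 23379476 unique molecular identifiers (UMIs, each 1 captured transcript) in 2303 and 1266 barcodes, of which 1276 and 795 passed the quality filters, and the sections held 2259744 and 2308754 UMIs with medians of 454 and 516 per spot. Cells were clustered with the 58 genes of the elastic fibre lists left out, both from the clustering and from the naming. A cluster was called mesenchymal progenitor cell (MPC)-like, fibroblast-like or mural-like from marker genes that include none of these 58. The MPC-like cluster (166 and 144 cells) was led by Tnmd, Thbs4, Fmod and Comp, the fibroblast-like cluster (112 and 88 cells) by Cxcl5, Cxcl14 and Sfrp2, and 2 clusters of pericyte and smooth muscle character formed the mural-like class (96 and 53 cells). Markers of MPCs made up 24198 and 23270 CPM (UMIs of a gene scaled to a common library total) in MPC-like cells, against 8462 and 10223 CPM in fibroblast-like cells, so that the classes differ in degree. Hif1a had 440 and 341 CPM in MPC-like cells, 538 and 467 CPM in fibroblast-like cells and 280 and 241 CPM in mural-like cells, and a 3′ tag does not show whether the floxed part was deleted. The classes were formed in the same cells in which the genes were then compared. The p-values rest on the spread left between the 2 libraries or the 2 sections after a common shift of each was removed. That spread was estimated over all classes fitted and not only over the classes compared. The test also draws the spread of each gene towards that of all genes tested. A p-value therefore does not measure how well the 2 libraries or sections agree for that gene alone.

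Promoter sequences of RefSeq (GRCm38.p6, 250 bases before to 50 bases after a start) matched 6 of the 10 genes, with 9 starts. The most upstream start of the 3 fibulin genes is shown because Fbln2 and Fbln5 had the most alike levels across cells of any pair among the 10 genes, and Fbln1 and Fbln5 the least alike. Capitals mark the core of the hypoxia response element, searched as ACGTG and as GCGTG on both strands, since the mice carry floxed Hif1a alleles. The letters ACGTG occur in 19.6% and GCGTG in 32.4% of all 32851 promoters in the table.
Fbln1 (chr15:85205699-85205998, plus strand): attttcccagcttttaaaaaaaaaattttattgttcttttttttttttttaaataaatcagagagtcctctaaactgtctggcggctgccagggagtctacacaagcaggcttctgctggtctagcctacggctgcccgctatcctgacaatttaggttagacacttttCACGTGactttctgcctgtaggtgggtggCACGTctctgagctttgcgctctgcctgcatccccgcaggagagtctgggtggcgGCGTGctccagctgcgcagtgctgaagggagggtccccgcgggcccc
Fbln2 (chr6:91212514-91212813, plus strand): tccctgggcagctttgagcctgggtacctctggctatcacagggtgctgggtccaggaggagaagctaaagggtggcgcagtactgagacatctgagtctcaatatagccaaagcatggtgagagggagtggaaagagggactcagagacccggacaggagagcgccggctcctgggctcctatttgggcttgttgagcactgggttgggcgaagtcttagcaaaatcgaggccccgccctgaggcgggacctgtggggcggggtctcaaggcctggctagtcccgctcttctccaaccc
Fbln5 (chr12:101819070-101819369, minus strand): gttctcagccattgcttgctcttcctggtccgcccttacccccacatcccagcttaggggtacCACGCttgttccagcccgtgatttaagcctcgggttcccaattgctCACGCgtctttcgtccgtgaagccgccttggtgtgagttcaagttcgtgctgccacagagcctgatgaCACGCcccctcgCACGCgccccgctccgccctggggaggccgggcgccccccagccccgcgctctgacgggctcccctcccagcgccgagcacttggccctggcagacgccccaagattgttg
Only Fbln1, of the 6 genes with a promoter in the table, held ACGTG in this window, at 3 positions of which a pair overlap in a palindrome, and 1 GCGTG. Fbln5 held 4 matches of GCGTG and Fbln2 held neither. A match of these letters is a description of the window and not a binding site.

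The genes lie on 8 chromosomes of mm10 (GENCODE vM21). Eln (chromosome 5, 134702593 to 134747323, minus strand) encodes elastin. Fbn1 (chromosome 2, 125300594 to 125507993, minus strand) and Fbn2 (chromosome 18, 58008623 to 58210487, minus strand) encode the fibrillins. Mfap2 (chromosome 4, 141010418 to 141015984, plus strand) and Mfap5 (chromosome 6, 122505845 to 122529290, plus strand) encode small glycoproteins that bind fibrillin, and Mfap4 (chromosome 11, 61485431 to 61488900, plus strand) encodes a fibrinogen-related protein of the fibre surface. Fbln1 (chromosome 15, 85205949 to 85286535, plus strand), Fbln2 (chromosome 6, 91212455 to 91272540, plus strand) and Fbln5 (chromosome 12, 101746565 to 101819055, minus strand) encode fibulins, and Emilin1 (chromosome 5, 30913402 to 30921277, plus strand) encodes a glycoprotein at the interface of elastin and microfibrils. Mfap4 overlaps Mapk7 on the opposite strand, and Eln, Fbn1 and Fbn2 each overlap 1 unnamed gene model on the opposite strand. Whether the counting used strand is not given in the sources used here.

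Across the 9 cell classes with at least 20 cells in each library, the 10 genes together made up 0.446% and 0.483% of UMIs in MPC-like cells, 0.647% and 0.701% in fibroblast-like cells and 0.115% and 0.110% in mural-like cells. They made up 0.102% and 0.0958% in endothelial-like cells and 0.0666% and 0.0913% in Schwann-like cells, and at most 0.0057% in macrophage-like, dendritic-like, T/NK-like and keratinocyte-like cells. Against the mean of the 6 other classes, the mean of the 3 mesenchymal classes was higher for all 10 genes (edgeR quasi-likelihood test, Benjamini-Hochberg adjusted p from 1.27e-17 to 2.65e-08), where 6361 of the 12712 genes tested were called and 34.6% were called higher. The log2 fold changes ran from 4.23 for Fbln5 to 7.66 for Fbn2, beside a median of 0.16 over all genes. Fbln1, Fbn2 and Mfap4 had 0 UMIs in 8, 7 and 6 of the 12 sums of the other classes, so their fitted changes depend on the prior count. The group mean does not describe mural-like cells for every gene. There Fbln2 had 13.3 and 31.2 CPM, against 462 and 460 CPM in endothelial-like cells. Fbln5 had 7.65 and 4.22 CPM there, against 301 and 232 CPM in endothelial-like cells. Fbln1 had 3.57 and 4.22 CPM there, against 16.3 and 11.8 CPM in keratinocyte-like cells. Mfap4, at 2.04 and 2.53 CPM there, overlapped with macrophage-like cells.

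**Figure D1:**
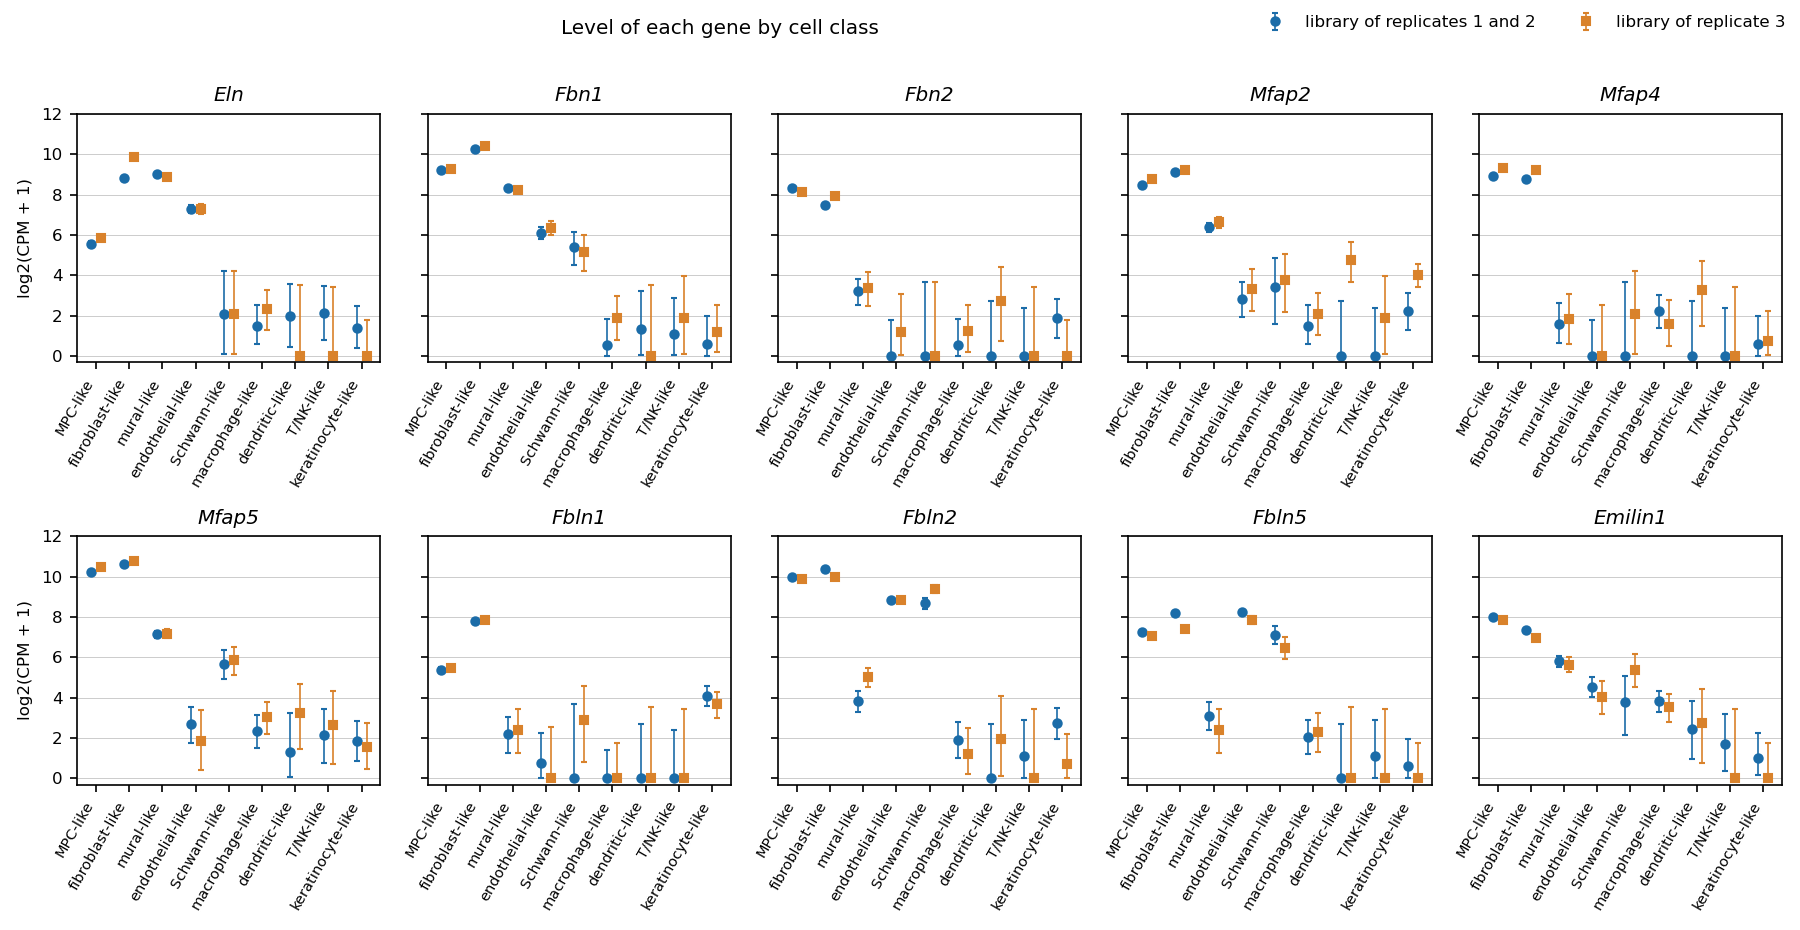
Level of each of the 10 genes in 9 cell classes, as log2(CPM + 1) on the vertical axis, with 1 point per library (circles, replicates 1 and 2; squares, replicate 3) and exact 95% Poisson intervals that cover counting error only. Eln had 46.5 and 57.2 CPM in MPC-like cells and 459 to 935 CPM in fibroblast-like and mural-like cells, whereas Mfap4 had 434 to 648 CPM in MPC-like and fibroblast-like cells and 2.04 and 2.53 CPM in mural-like cells.

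The 3 mesenchymal classes were then set against each other, in comparisons that share their class sums. For MPC-like minus fibroblast-like cells Emilin1 was higher, 4 genes were lower (Eln, Fbln1, Fbn1 and Fbln5) and 5 did not pass, where 15.0% of all genes were called, 5.53% higher and 9.44% lower. The median log2 fold change over the 10 genes was -0.46, beside -0.0015 over all genes. For MPC-like minus mural-like cells 9 genes were higher and Eln was lower, with 34.1% of all genes called, and for fibroblast-like minus mural-like cells all 10 were higher, with 28.0% called. Markers of MPCs, 18 of 20 detected in each library with Kera at 0 in both, summed to 1970 and 2066 CPM in mural-like cells, and their part in the low levels there was not tested.

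Eln, the gene of the elastic core, separated MPC-like cells from the other mesenchymal classes. Eln had 46.5 and 57.2 CPM in MPC-like cells (379 and 418 UMIs), against 459 and 935 CPM in fibroblast-like cells and 512 and 464 CPM in mural-like cells. Both MPC-like sums lay below every fibroblast-like and mural-like sum, and also below the endothelial-like cells, which had 155 CPM in each library. The log2 fold change was -3.73 for MPC-like minus fibroblast-like cells (SE 0.28, edgeR adjusted p = 6.50e-08, lower in 2 of 2 libraries) and -3.03 for MPC-like minus mural-like cells (SE 0.27, edgeR adjusted p = 7.68e-08, lower in 2 of 2).

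Eln UMIs were concentrated in few cells in all 3 mesenchymal classes. In MPC-like cells 27.7% (95% Wilson interval 21.5% to 35.0%) and 33.3% (26.2% to 41.4%) held any Eln UMI at median depths of 50224.5 and 50030.5 UMIs, and the 17 and 15 cells with most Eln held 85.8% and 84.0% of its UMIs. For the other 9 genes, the same number of MPC-like cells with most of each gene held 24.3% to 41.9%. In fibroblast-like cells 76.8% (68.2% to 83.6%) and 72.7% (62.6% to 80.9%) held an Eln UMI at median depths of 35039.5 and 42243 UMIs, and the 12 and 9 cells with most Eln held 58.2% and 68.5%. In mural-like cells 10 and 6 cells held 64.1% and 78.7% of the Eln UMIs, and the 1 cell with most held 233 of 1003 and 216 of 550 UMIs, beside medians of 2.5 and 1 UMIs per cell. After thinning to 3000 UMIs per cell, which left out no MPC-like cell and 2 fibroblast-like cells in each library, the shares were 9.04% and 6.94% in MPC-like cells and 46.4% and 40.7% in fibroblast-like cells. In T/NK-like cells, which serve as background, 0.862% and 0% held an Eln UMI (1 of 116 and 0 of 45 cells, the second of which allows a share of up to 6.67%) at median depths of 6745.5 and 8517 UMIs. Markers of fibroblasts, 20 and 19 of 20 detected, summed to 2490 and 3329 CPM in MPC-like cells, against 10340 and 11869 CPM in fibroblast-like cells, and their part in the remaining Eln level was not tested.

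The level of Eln in fibroblast-like cells was not alike in the 2 libraries, with 935 CPM in replicate 3 and 459 CPM in the pooled library, and 1 cell of replicate 3 held 669 of its 3323 Eln UMIs. The difference of fibroblast-like minus mural-like cells for Eln was likewise unequal, with a log2 fold change of 0.07 in replicates 1 and 2 alone and 1.27 in replicate 3 alone. The joint estimate was 0.70 (SE 0.25, edgeR adjusted p = 0.0459), and over 7 alternatives the adjusted p ran from 0.00162 to 0.524. It did not pass with DESeq2, with the size factors of DESeq2 in edgeR, without the library block (adjusted p = 0.0607) or at the coarser clustering.

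Of the fibrillins, Fbn1 was lower in MPC-like than in fibroblast-like cells and Fbn2 did not pass. Fbn1, the main fibrillin of adult tissue, had 596 and 623 CPM in MPC-like cells, 1239 and 1366 CPM in fibroblast-like cells and 322 and 295 CPM in mural-like cells, and no ranges overlapped. Its log2 fold change was -1.11 for MPC-like minus fibroblast-like cells (SE 0.17, edgeR adjusted p = 0.000195) and 1.201 for MPC-like minus mural-like cells (SE 0.18, edgeR adjusted p = 3.39e-05). Fbn2, a fibrillin made mostly during development, had 318 and 276 CPM in MPC-like cells, against 176 and 243 CPM in fibroblast-like cells and 8.16 and 9.29 CPM in mural-like cells. The Fbn2 difference of 0.50 for MPC-like minus fibroblast-like cells did not pass (SE 0.22, edgeR adjusted p = 0.160; 0.83 and 0.17 in the single libraries), although both MPC-like sums were above both fibroblast-like sums. With no filter on low counts it passed at an adjusted p of 0.0348, within a range of 0.0348 to 0.654 over 7 alternatives. Against mural-like cells, Fbn2 was higher by 5.31 in MPC-like cells and by 4.81 in fibroblast-like cells on the log2 scale.

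The genes of the microfibril-associated glycoproteins were found in both MPC-like and fibroblast-like cells and were lower in mural-like cells. Mfap4 had 491 and 648 CPM in MPC-like cells and 434 and 604 CPM in fibroblast-like cells, with overlapping ranges, and 2.04 and 2.53 CPM in mural-like cells (4 and 3 UMIs). Mfap5 had 1203 and 1432 CPM in MPC-like cells, 1568 and 1738 CPM in fibroblast-like cells and 141 and 144 CPM in mural-like cells. Mfap2 had 356 and 436 CPM in MPC-like cells, 560 and 599 CPM in fibroblast-like cells and 83.1 and 97.9 CPM in mural-like cells. None of these 3 genes passed between MPC-like and fibroblast-like cells by edgeR, with log2 fold changes of 0.12 for Mfap4, -0.35 for Mfap5 and -0.58 for Mfap2 (adjusted p of 0.757, 0.225 and 0.176), and Mfap2 had an unadjusted p of 0.0441. All 3 genes passed against mural-like cells in both classes, by 8.13 in MPC-like and 8.01 in fibroblast-like cells for Mfap4, 3.42 and 3.77 for Mfap5, and 2.34 and 2.92 for Mfap2 on the log2 scale.

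Among the fibulins, Fbln1 and Fbln5 were lower in MPC-like than in fibroblast-like cells and Fbln2 did not pass. Fbln1 had 40.7 and 44.0 CPM in MPC-like cells, against 220 and 228 CPM in fibroblast-like cells, a log2 fold change of -2.42 (SE 0.18, edgeR adjusted p = 3.87e-07). It was near 0 in mural-like cells (7 and 5 UMIs) and had 16.3 and 11.8 CPM in keratinocyte-like cells, where 21.9% (14.0% to 32.7%) and 11 of 55 (11.6% to 32.4%) of cells held a UMI at median depths of 26035 and 22391 UMIs, against 0 of 116 and 0 of 45 T/NK-like cells, which allow shares of up to 2.59% and 6.67%. After thinning to 3000 UMIs the keratinocyte-like shares were 8.47% and 2.56% (5 and 1 cells), too few to read a level from. Fbln2 had 999 and 944 CPM in MPC-like cells and 1355 and 1008 CPM in fibroblast-like cells, and the difference of -0.30 did not pass (SE 0.28, edgeR adjusted p = 0.555). Fbln2 was also present in endothelial-like cells at 462 and 460 CPM and in Schwann-like cells at 411 and 666 CPM, and low in mural-like cells at 13.3 and 31.2 CPM. Fbln5, which binds elastin and integrins, had its highest mean in endothelial-like cells at 301 and 232 CPM, overlapping with the 297 and 170 CPM of fibroblast-like cells. MPC-like cells had 154 and 134 CPM of Fbln5, Schwann-like cells 137 and 88.8 CPM, and mural-like cells 7.65 and 4.22 CPM. The Fbln5 difference of MPC-like minus fibroblast-like cells was -0.67 (SE 0.17, edgeR adjusted p = 0.00980), at -0.97 in replicates 1 and 2 alone and -0.35 in replicate 3 alone. In fibroblast-like cells 12 and 9 cells held 54.2% and 47.5% of the Fbln5 UMIs.

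Emilin1, the 1 gene called higher in MPC-like than in fibroblast-like cells, had separate ranges in all 3 mesenchymal classes. It had 253 and 232 CPM in MPC-like cells, against 163 and 122 CPM in fibroblast-like cells and 55.1 and 48.96 CPM in mural-like cells. The log2 fold change was 0.76 for MPC-like minus fibroblast-like cells (SE 0.18, edgeR adjusted p = 0.00760) and 2.45 for MPC-like minus mural-like cells (SE 0.21, edgeR adjusted p = 5.31e-08).

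**Figure D2:**
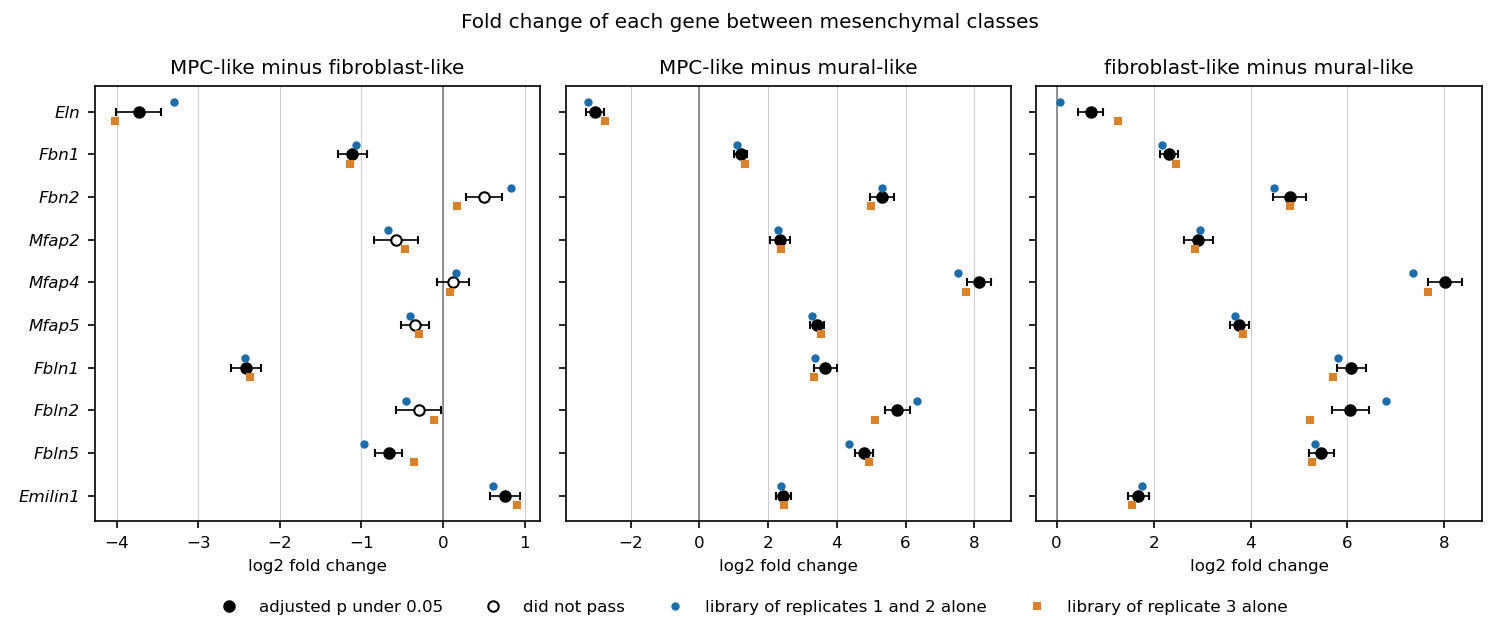
Log2 fold change of each gene between the mesenchymal classes, with the joint edgeR estimate and its standard error in black (filled where the adjusted p is under 0.05, open where it is not) and the value of each library alone in colour. Eln lay left of 0 in both comparisons of MPC-like cells, at -3.73 and -3.03, and all other genes lay right of 0 against mural-like cells.

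Splitting the mesenchymal classes into clusters showed further differences, given here without a test because clusters were formed from these cells. The smooth muscle-led mural cluster (20 and 7 cells; Myh11, Cnn1, Acta2) had 1092 and 544 CPM of Eln, against 345 and 450 CPM in the pericyte-led mural cluster (76 and 46 cells; Rgs5, Kcnj8, Abcc9). In the whole mural-like class 1 cell held 233 of 1003 and 216 of 550 Eln UMIs, which weighs on the Eln level of its cluster. The smooth muscle-led cluster also had more Emilin1, at 137 and 125 CPM, against 31.5 and 35.0 CPM in the pericyte-led cluster. Mfap5 and Mfap2 went the other way, with 4.57 and 5.44 CPM of Mfap5 in the smooth muscle-led cluster, against 181 and 170 CPM in the pericyte-led cluster, and 4.57 and 10.9 CPM of Mfap2, against 106 and 114 CPM. These values of the smooth muscle-led cluster rest on few UMIs, so no more than a low level can be read from them. In the whole mural-like class, the 10 and 6 cells with most Mfap5 held 82.7% and 97.7% of its UMIs.

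Among clusters left without a name, one led by Coch and Crabp1 (35 and 24 cells) had Eln at 244 and 1364 CPM, Mfap4 at 461 and 1356 CPM and Mfap5 at 448 and 266 CPM. Its Eln and Mfap4 differed more between the libraries than those of the MPC-like cluster. A cluster of dividing cells (53 and 40 cells) had Eln at 90.9 and 25.1 CPM, Mfap5 at 1118 and 1237 CPM and Emilin1 at 188 and 178 CPM. A small cluster led by the cartilage genes Col2a1, Col9a3 and Ucma (16 and 6 cells; 4 MPC markers and 2 cartilage and bone markers among its 50 top genes, but more of the cartilage and bone markers among its 10 top genes) had 1 and 0 Eln UMIs, and Fbn2 at 614 and 516 CPM and Emilin1 at 378 and 266 CPM. In that cartilage-led cluster both Fbn2 values exceeded those of every named class.

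**Figure D3:**
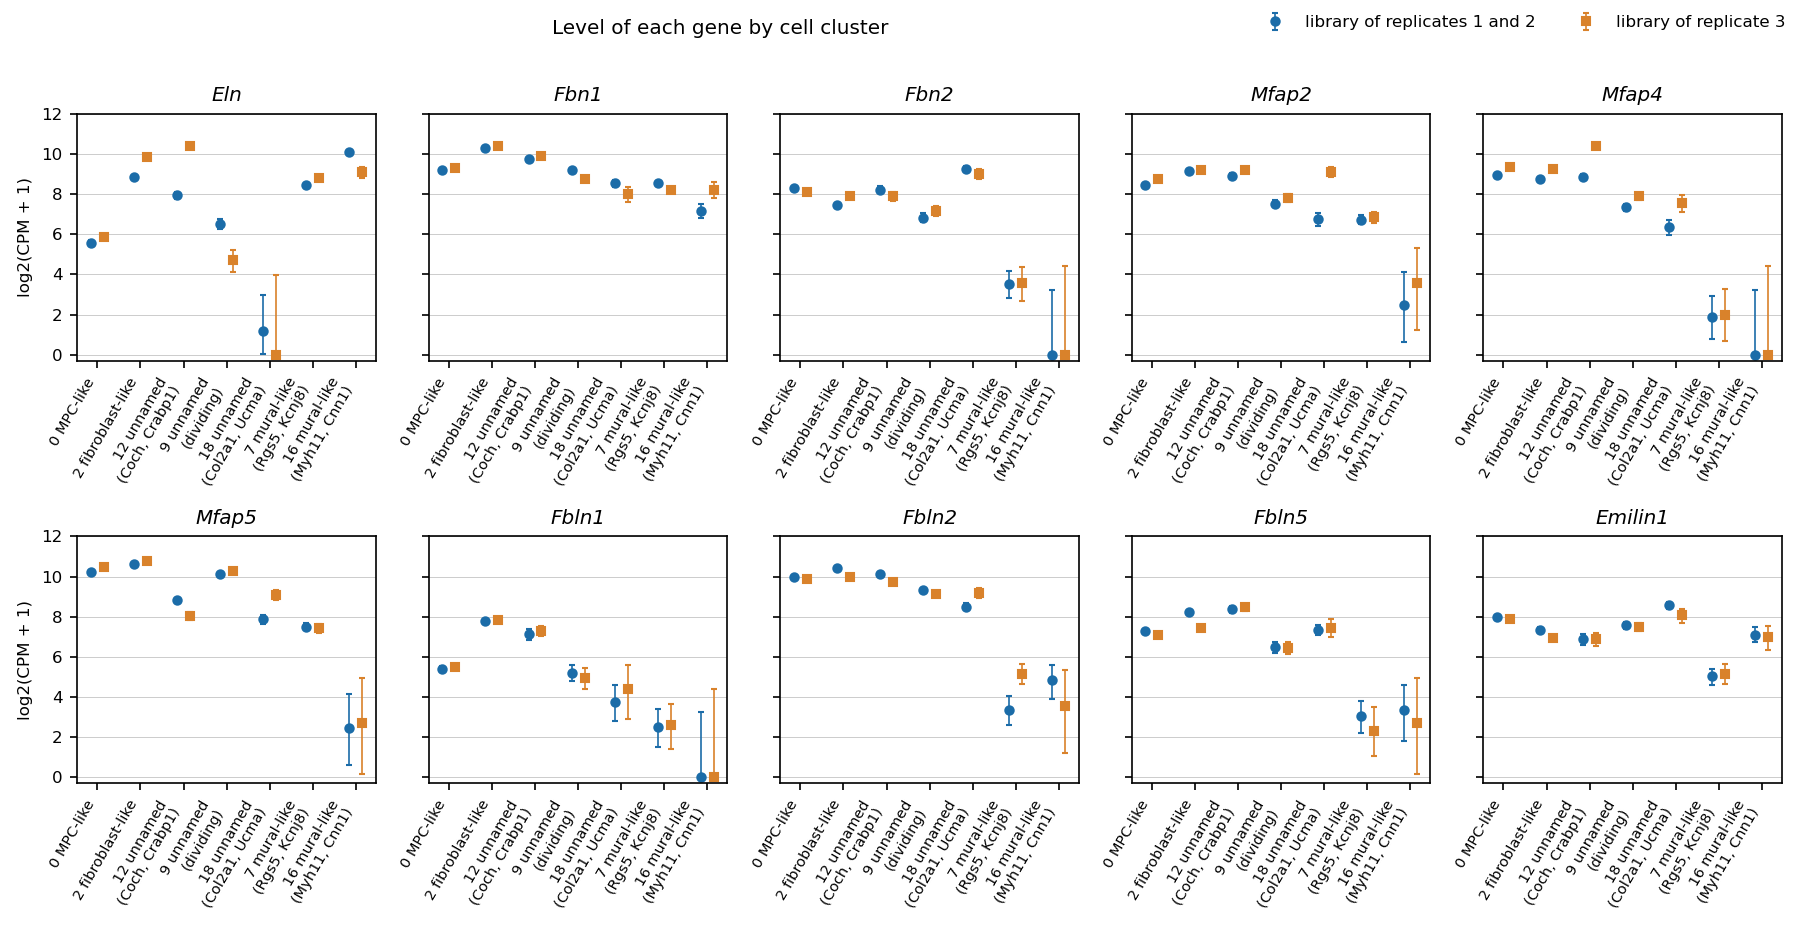
Level of each gene, as log2(CPM + 1), in 7 clusters, with 1 point per library and exact 95% Poisson intervals. Shown are the clusters of the mesenchymal classes and the unnamed ones led by Coch and Crabp1, by genes of dividing cells or by cartilage genes. Eln had 1.25 and 0 CPM in the cartilage-led cluster 18, against 46.5 and 57.2 CPM in MPC-like cells, while Fbn2 reached 614 and 516 CPM there.

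Endothelial-like and Schwann-like cells carried a subset of the genes. Eln, Fbln2 and Fbln5 were at 155 to 462 CPM in endothelial-like cells, where Fbn2 and Mfap4 had at most 1 UMI per library. Of endothelial-like cells, 46.4% (36.8% to 56.3%) and 36.8% (25.5% to 49.8%) held an Eln UMI, 69.1% (59.3% to 77.4%) and 57.9% (45.0% to 69.8%) an Fbln2 UMI, and 61.9% (51.9% to 70.9%) and 43.9% (31.8% to 56.7%) an Fbln5 UMI, at median depths of 13593 and 8103 UMIs. Of T/NK-like cells at most 0.862% held a UMI of each of these genes. Both thinned shares of endothelial-like cells were also above those of T/NK-like cells, at 34.5% and 25.0% for Eln, 58.3% and 55.0% for Fbln2 and 38.1% and 32.5% for Fbln5. Of 15 mural markers 13 and 12 were detected in endothelial-like cells, with Cnn1 and Pln at 0 in both libraries, and they summed to 1327 and 807 CPM, against 25151 and 20699 CPM in mural-like cells. Fbln2 and Fbln5 were at 13.3 to 31.2 and 4.22 to 7.65 CPM in the mural-like cells themselves. Schwann-like cells held Fbln2 and Fbln5 as above, with Fbn1 at 41.4 and 34.9 CPM, Mfap5 at 51.0 and 57.1 CPM, 0 Fbn2 UMIs and 0 and 1 Mfap4 UMIs. Of 20 MPC markers 12 and 13 were detected in Schwann-like cells, summing to 2330 and 2401 CPM (Tnmd, Lrrc15, Acan, Chodl and Cilp2 at 0 in both libraries), and of 20 fibroblast markers 7 and 11, summing to 1406 and 1595 CPM (Dpp4, Cd34, Clec3b and Sfrp2 among those at 0 in both), and their part in the Schwann-like levels was not tested. Within the pair of Schwann clusters Fbln2 was at 557 and 844 CPM in one and at 11.9 and 14.8 CPM in the other.

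The likeness of the patterns was described by Pearson's r of log2 CPM over the 18 sums of classes and libraries. The sums share libraries, and large contrasts between classes, such as mesenchymal against other cells, weigh most in r. Fbln2 and Fbln5 did not follow the mesenchymal contrast alone, being present in endothelial-like and Schwann-like cells and low in mural-like cells. Fbln2 and Fbln5 (r = 0.96) and Fbn2 and Mfap4 (r = 0.96) were the most alike pairs, and Fbln1 and Fbln5 (r = 0.47) the least alike. Outside the elastic fibre lists, the pattern of Eln was most like those of Meox2 (r = 0.95) and Hic1 (r = 0.94), that of Fbn1 most like Lrp3 (r = 0.98) and Fstl1 (r = 0.98), and that of Fbn2 most like Lum (r = 0.98) and Ptgis (r = 0.97). Mfap5 was most like the type I collagen genes Col1a2 (r = 0.99) and Col1a1 (r = 0.99), Mfap4 most like Gxylt2 (r = 0.98) and Lum (r = 0.98), and Mfap2 most like Nbl1 (r = 0.96) and Creb3l1 (r = 0.95). Fbln1 was most like Ism1 (r = 0.96) and Has1 (r = 0.95), Fbln2 most like Slc2a13 (r = 0.97) and Fxyd6 (r = 0.96), Fbln5 most like Fam171a1 (r = 0.95) and Npr2 (r = 0.94), and Emilin1 most like Fam114a1 (r = 0.97) and Fkbp7 (r = 0.97).

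The partners of the fibre were read from 4 further lists. Of 23 microfibril partners tested of 24, 6 were lower and 2 higher in MPC-like than in fibroblast-like cells, and 15 did not pass. The largest change among the partners called was that of Efemp1, a fibulin, which had 1.23 and 2.88 CPM in MPC-like cells, against 97.2 and 62.2 CPM in fibroblast-like cells (log2 fold change -5.25, SE 0.37, edgeR adjusted p = 2.15e-07). Emilin2 (log2 fold change -2.22) and Adamtsl5, which encodes a secreted protein of microfibrils (-1.53), were lower. Emilin3 was higher, with 56 and 59 UMIs in MPC-like cells, against 1 and 2 UMIs in fibroblast-like cells. Of 4 lysyl oxidases tested of 5, only Loxl2 changed, with 444 and 521 CPM in MPC-like cells, against 265 and 314 CPM in fibroblast-like cells (0.72, SE 0.20, edgeR adjusted p = 0.0201). Of 7 enzymes able to degrade elastin or activate such enzymes, tested of 9, only Mmp14, a membrane-bound matrix metalloproteinase, changed, with 1016 and 1066 CPM in MPC-like cells, against 596 and 603 CPM in fibroblast-like cells (0.78, SE 0.18, edgeR adjusted p = 0.00474). Of 9 receptor genes tested of 10, the integrin gene Itgb1 was higher by 0.62 (edgeR adjusted p = 0.0488) and Itgb3 was lower (-1.51, edgeR adjusted p = 0.00347). Over all genes 15.0% were called in this comparison, so 1 of 7 enzymes, 1 of 4 lysyl oxidases and 2 of 9 receptor genes are counts too small to read apart from that share. The medians of these 4 lists were 0.14, 0.23, 0.39 and -0.03, beside -0.0015 over all genes.

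Against mural-like cells, most of the microfibril partners and the lysyl oxidases were higher. For MPC-like minus mural-like cells 16 of 23 microfibril partners were higher and 0 were lower by edgeR (7 did not pass), all 4 lysyl oxidases tested were higher, and 4 of 7 elastolytic enzymes were higher, where 18.2% of all genes were higher. Lox, which starts cross-linking of elastin and collagen, had 984 and 769 CPM in MPC-like cells and 783 and 804 CPM in fibroblast-like cells, against 114 and 89.5 CPM in mural-like cells. Ltbp2, of the family named latent TGF-β-binding proteins, was higher by 6.11 in MPC-like and by 6.37 in fibroblast-like cells on the log2 scale. Itga8, a receptor subunit of smooth muscle, was lower than in mural-like cells, with log2 fold changes of -3.93 for MPC-like and -4.42 for fibroblast-like cells. For fibroblast-like minus mural-like cells 18 of the 23 partners were higher and 1 was lower, where 16.3% of all genes were higher and 11.7% lower.

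In the sections, spots were assigned to tissue classes from the marker UMIs of a spot and its 6 neighbours, and wound spots (24 and 57) are those passing for markers of injury mesenchyme such as Postn, Tnc and Cthrc1. The sections held 9 to 2853 UMIs of each gene. Fbln1 had 17 and 9 UMIs in the whole sections and was not tested. Of the 9 genes tested for wound spots minus the mean of the 9 other classes, Fbn2, Fbln2 and Emilin1 were higher and Eln was lower, where 2.93% of the 4132 genes tested were called, 2.06% higher and 0.871% lower. The median over the 9 genes was 0.62, beside 0.0029 over all genes. DESeq2 gave an adjusted p for 5 of the genes and called 2. Probes on fixed tissue measured these spots and 3′ tags the cells, so levels are not set against each other between the assays.

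Fbn2 had 372 and 614 CPM in wound spots (16 and 75 UMIs), 580 and 577 CPM in tendon spots and 246 and 208 CPM in fibroblast spots, and its lowest values were 28.3 and 42.9 CPM in myeloid spots. The log2 fold change for wound spots minus the mean of the other classes was 1.08 (SE 0.24, edgeR adjusted p = 0.00232, higher in 2 of 2 sections). Fbln2 had 279 and 221 CPM in wound spots (12 and 27 UMIs), the highest of the 10 classes in both sections, and the log2 fold change was 1.34 (SE 0.34, edgeR adjusted p = 0.0101). Emilin1 had 1695 and 2073 CPM in wound spots (73 and 253 UMIs) and 1529 and 1874 CPM in tendon spots, while cartilage spots held 1794 and 1333 CPM, with a log2 fold change of 0.72 for wound spots minus the other classes (SE 0.17, edgeR adjusted p = 0.00601, 0.45 in A1 and 0.89 in B1). None of these 3 passed when spots that pass more than 1 list were left out. The edgeR adjusted p was 0.0913, 0.244 and 0.0678 for Fbn2, Fbln2 and Emilin1, the highest of 8, 6 and 8 alternatives. That alternative kept 21 and 36 wound spots and left fibroblast spots (12 and 24) out of the fit. The part of each change in the lost calls was not tested. Emilin1 also did not pass without the section block (edgeR adjusted p = 0.0514).

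Eln had 139 and 57.4 CPM in wound spots, from 6 and 7 UMIs, and 595 and 836 CPM in mural spots, the highest of the 10 classes in both sections. In the other classes Eln ran from 56.6 CPM in myeloid spots to 372 CPM in muscle spots of A1, and from 59.6 CPM in bone spots to 416 CPM in fibroblast spots of B1. The log2 fold change for wound spots minus the other classes was -1.55 (SE 0.43, edgeR adjusted p = 0.0244), at -0.86 in A1 and -1.64 in B1. The call was lost under 5 alternatives, among them DESeq2 (adjusted p = 0.0684) and no section block (adjusted p = 0.0975). In wound regions from a clustering of the spots, which were far wider (500 and 506 spots) and had 292 and 167 CPM of Eln, the value was 0.21 (adjusted p = 0.598). That alternative drew the wound and all classes it was set against anew, and had no mural or fibroblast region, so the part of each in the change of sign cannot be told apart. Of 8 mural markers 5 and 7 were detected in wound spots, summing to 1184 and 655 CPM, against 3395 and 3266 CPM in mural spots, and in spots fewer cells of a type cannot be told apart from less RNA per cell.

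The remaining genes did not pass for wound spots. Mfap2 had 859 and 483 CPM in wound spots and was highest in adipose spots, at 1493 and 1490 CPM. Fbn1 had 279 and 385 CPM in wound spots, beside 458 and 428 CPM in mural spots and 281 and 520 CPM in fibroblast spots. Mfap4 had 186 and 197 CPM in wound spots, beside 192 and 447 CPM in mural spots. In wound spots Mfap5 had 92.9 and 90.1 CPM and Fbln5 had 116 and 90.1 CPM, from 4 to 11 UMIs per section. In the wider regions from clustering, Mfap2 (0.84), Fbn1 (1.14), Mfap4 (1.11) and Fbln5 (1.87) were higher in the wound region on the log2 scale. The median there was 0.07 over 9458 genes. Far more of all genes were also called higher there than for wound spots, so these calls set the named genes less apart. That region was led by Thbs4, Ptx3, Mmp3 and Sod3, with 4 wound markers among its top genes, and its tissue make-up was not tested.

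**Figure D4:**
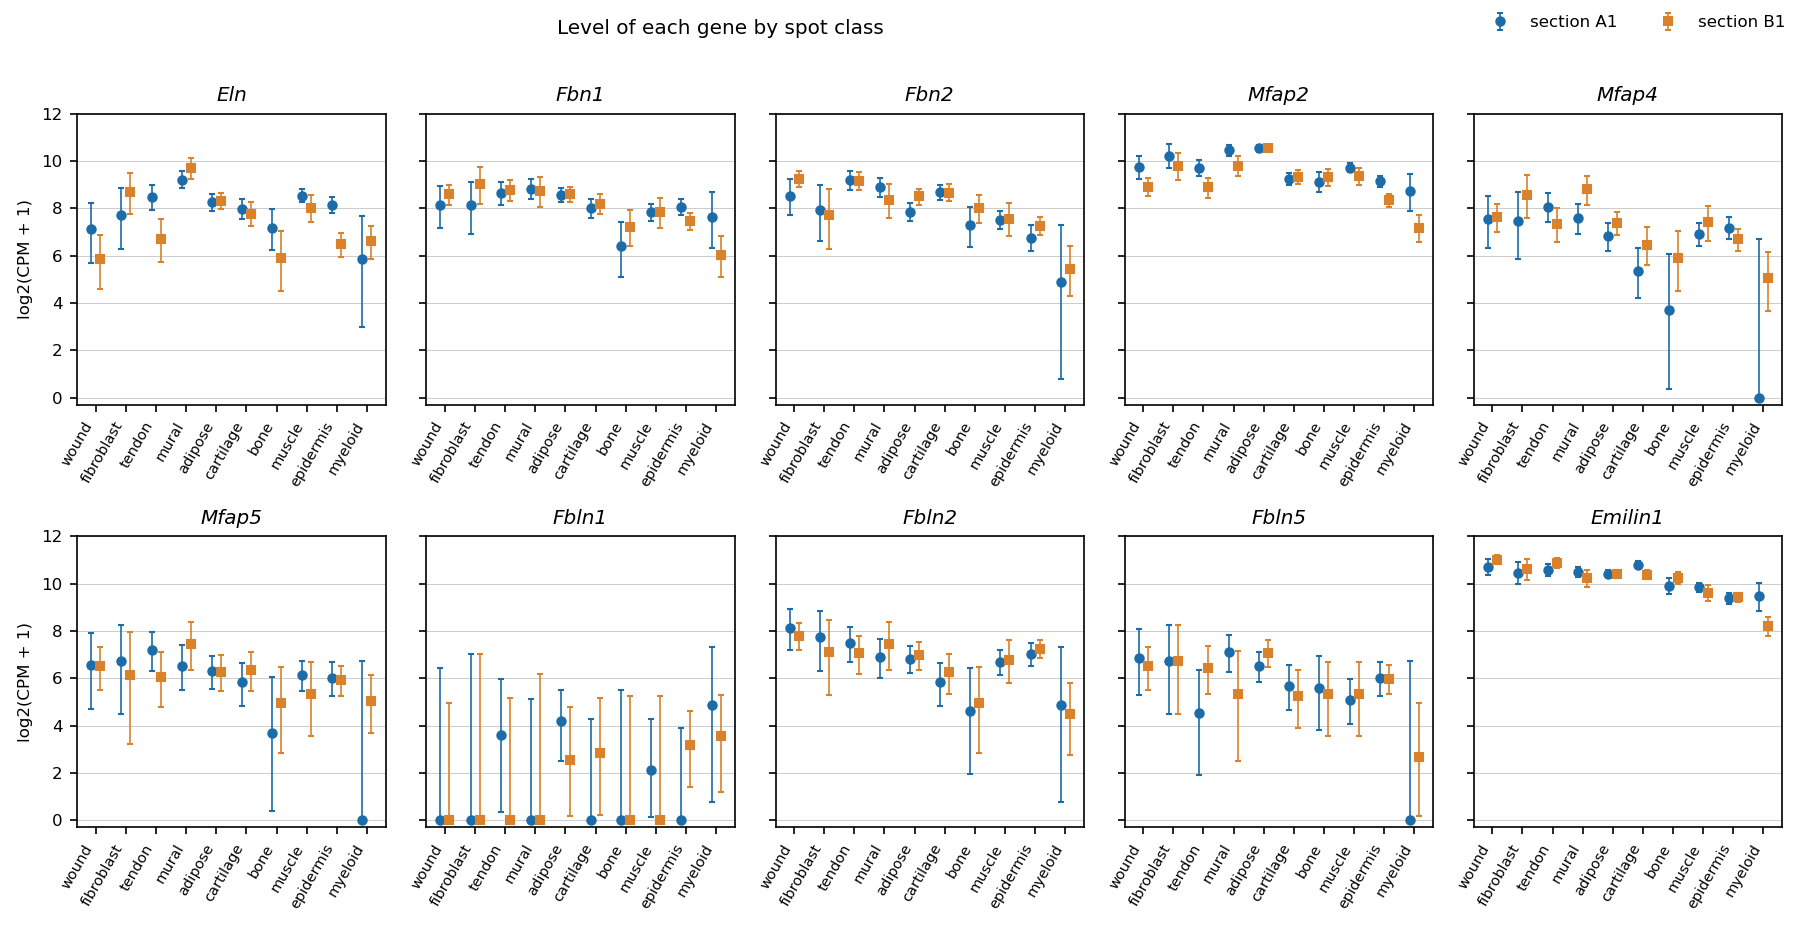
Level of each gene, as log2(CPM + 1), in 10 spot classes of sections A1 (circles) and B1 (squares), with exact 95% Poisson intervals that cover counting error only. Eln was highest in mural spots, at 595 and 836 CPM, and had 139 and 57.4 CPM in wound spots, whereas Fbn2 had 372 and 614 CPM in wound spots.

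Between wound spots and either fibroblast or tendon spots, 0 of the 9 genes tested passed by edgeR, where 0.242% of all genes (0.145% higher and 0.0968% lower) and 0.0242% of all genes were called. At an unadjusted p under 0.05 these were Eln (-1.78) and Fbn2 (1.28) against fibroblast spots, and Eln (-1.39) against tendon spots, and DESeq2 called 0 of 6 and 0 of 9 genes. Fibroblast spots numbered 21 and 27 and held 6 and 12 Eln UMIs, so only large differences were detectable. Tendon spots held wound markers at 1942 and 2859 CPM, against 3321 and 4154 CPM in wound spots. Wound spots held tendon markers at 1231 and 1311 CPM, against 2589 and 2736 CPM in tendon spots. Wound and tendon spots thus differ in degree, which limits any difference between them. Of the partners, Lox had 2531 and 3212 CPM in wound spots and was higher than the mean of the other classes by 1.16 (SE 0.16, edgeR adjusted p = 5.46e-08), Bgn by 0.78 and Fn1 by 0.72. Of 14 microfibril partners tested 2 were higher, and of 4 lysyl oxidases 1, where 2.06% of all genes were higher than the mean of the other classes.

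The levels also varied with distance from the wound spots. Emilin1 in B1 decreased in order from 2073 CPM in wound spots over 1654, 1271 and 1121 CPM to 898 CPM at 6 or more spot steps, and in A1 it had 1695, 1623, 1447, 1468 and 1171 CPM over the same steps, with 1 exception to that order. Fbn2 had 372 and 614 CPM at 0 steps, 632 and 397 CPM at 1 step, and 207 and 220 CPM at 6 or more steps. Eln had 139 and 57.4 CPM at 0 steps, against 341 and 206 CPM at 6 or more steps. Median UMIs per spot also differed, at 1775.5 and 1955 in wound spots, against 411 and 436 at 6 or more steps, and their part in these values was not tested.

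**Figure D5:**
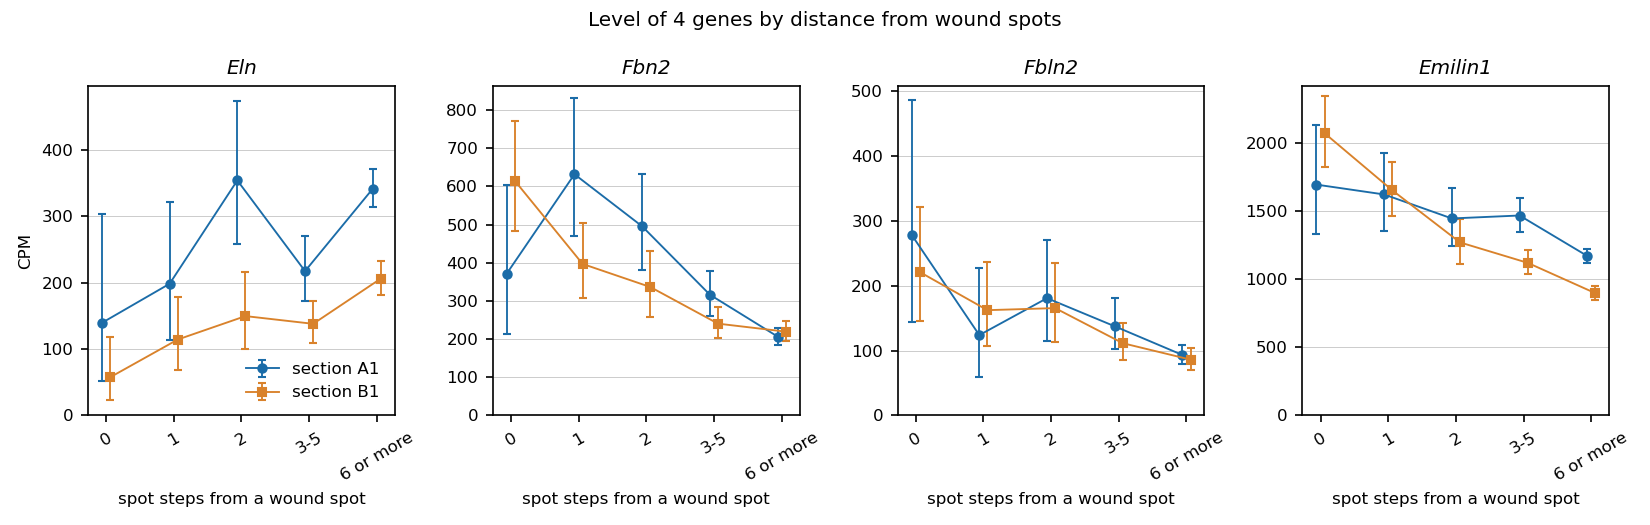
CPM of Eln, Fbn2, Fbln2 and Emilin1 in spots grouped by steps on the hexagonal grid from the nearest wound spot, for sections A1 and B1, with exact 95% Poisson intervals. Emilin1 was highest at 0 steps in both sections (1695 and 2073 CPM), and Eln was lowest there (139 and 57.4 CPM).

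Moran's I, a score of how alike neighbouring spots are that the authors deposited per gene, was highest among the 10 genes for Mfap2 and Emilin1 in A1 (0.0819 and 0.0817, places 104 and 105 of 19132 genes) and for Emilin1, Eln and Mfap2 in B1 (0.116, 0.112 and 0.111, places 130, 139 and 145 of 19222 genes). Fbn2 had 0.0428 in A1 and 0.0571 in B1, and Fbn1 had 0.0386 and 0.0384. Mfap5, Fbln1 and Fbln5 were under 0.01 in both sections, and the score of a gene with few UMIs is limited by counting.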

How the data were processed

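For the libraries the authors used Cell Ranger 5.0.1 and for the sections Space Ranger 2.0.1, both on mm10, and the deposited values are unnormalized counts of UMIs. For each section they also deposited a score per gene (Moran's I), which was used as it stands. No column of another sample was used (0), and spots segmented by hand in the study were not used here. The 10 genes and all lists were chosen with earlier results of these data known.

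Barcodes were dropped below 200 genes, above 20% mitochondrial UMIs, below 5% ribosomal UMIs, or beyond percentile 99 of UMIs or genes. Seurat 5.3.0 integrated the rest on 30 principal components of 2000 variable genes and clustered at resolution 0.8. Names required 3 or more of a class's markers in the 50 top genes and a lead of 2 over the next class, and no name was given where another class had more markers among the 10 top genes (the cartilage-led cluster) or where a shallow cluster had none there. Of 20 clusters 6 stayed unnamed (286 and 153 cells), one of them, led by inflammatory monocyte genes, after its genes were seen. No doublet caller was run, and 0 kept barcodes were shared between the libraries. Shares have Wilson intervals of 95% and a count of 0 the limit of 3 counts.

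Spots with at least 100 UMIs took the list with the smallest Poisson tail under 0.001 and at least 3 UMIs, over the spot and its neighbours (7 spots). This window was chosen after seeing that single spots left the wound class with under 20 spots per section. Counts were summed per sample and class (at least 20 cells or spots, 18 and 20 sums). After filterByExpr and TMM scaling, the sums went into the quasi-likelihood test of edgeR 4.0.16 (R 4.3.3) with the library or section as block, because classes of a sample come from the same animals, with 8 and 9 residual degrees of freedom and Benjamini-Hochberg adjustment over all genes tested at a threshold of 0.05. The fits were also run on simulated counts in which some genes were changed in a single class and all else was alike between classes. That setting is simpler than the data, so it does not measure normalization or error rates here. DESeq2 1.42.0 was an alternative. Intervals cover counting error only. Named genes are all 10 members, up to 4 genes per partner list past the threshold with the same sign in both samples, and the 2 most alike genes per member.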

Additional observations from a re-analysis of the deposited data

Results flagged for a closer look

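Signals outside the comparisons were seen in cells and barcodes that no test used. In the unnamed cluster led by cartilage genes (16 and 6 cells), Fbn2 had 614 and 516 CPM in the library of replicates 1 and 2 and in that of replicate 3, above the highest named class of the same library at 318 and 276 CPM. Emilin1 had 378 and 266 CPM in the same cluster, above 253 and 232 CPM in the highest named class. In the unnamed cluster led by Coch and Crabp1 (35 and 24 cells), Fbln5 had 328 and 354 CPM, above 301 and 232 CPM in the highest named class. In the barcodes left out by the quality filters (1027 and 471), the 10 genes together made up 1457 and 1890 CPM.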

How the results depend on the processing

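In the cells, 274 of 280 values over 7 alternatives with a test kept their direction and side of the threshold, 4 lost the call (all Eln in fibroblast-like minus mural-like cells), 2 gained one with no filter on low counts (Fbn2 and Mfap2 in MPC-like minus fibroblast-like cells), 0 reversed, and 56 of 56 counts of called genes stayed within 1.5 times. In the spots, 142 of 161 values with a test kept their direction and side of the threshold. Of the rest, 9 lost the call, 3 gained one and 7 reversed. Of 40 counts of called genes, 22 moved by more than 1.5 times. Values of 1 library or section alone have no test: all 80 of the cells kept their direction (Eln was 0.07 for fibroblast-like minus mural-like cells in replicates 1-2), and of 54 of the spots 45 kept it and 9 changed sign (Fbn1 in wound spots minus the other classes, 4 genes in wound minus fibroblast and 4 in wound minus tendon spots). For wound spots minus the other classes, 85 genes were higher and 36 lower, against 42 and 20 with DESeq2, 48 and 14 with no filter on low counts, 47 and 17 with spots of only 1 list, 26 and 8 with single spots (at least 10 per class) and 975 and 216 with regions from clustering, where Eln (0.21) and Mfap2 (0.84) reversed. Without the replicate block, meaning the library or section, 47 genes were higher and 9 lower for wound spots minus the other classes, 0 were higher for wound minus fibroblast spots and 0 lower for wound minus tendon spots. In the cells the block changed only the call of Eln in fibroblast-like minus mural-like cells (0.76 without it).

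For wound minus fibroblast spots, 6 genes were higher and 4 lower, against 1 higher with DESeq2, 2 lower with no filter and 2 higher with single spots, and Fbln5 became -0.12 with the size factors of DESeq2, where the median of all genes was -0.03 in place of 0.09, and Fbn1 0.19 with no filter. For wound minus tendon spots, 0 genes were higher and 1 lower, against 0 lower with DESeq2 or no filter, 1 higher and 3 lower with only 1 list and 3 lower with single spots, and Mfap4 became 0.31 and Emilin1 -0.11 with only 1 list and Fbn2 0.32 with single spots. The cause of these shifts was not tested. A stricter tail left too few wound spots (6 and 23) to be fitted. Wound spots held 6 and 7 Eln UMIs, so counting limits its estimate. The window of 7 spots, single spots with a minimum of 10 and the regions from clustering were chosen after seeing the data.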
